A study of Homo sapiens with 6 samples.

Results

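The cAMP phosphodiesterases described here are the 10 genes of the PDE3, PDE4, PDE7 and PDE8 families, taken by symbol from the 35238 symbols of a gene count table of HAP1 cells with and without the enzyme DEGS1. All 10 were present in the table, and 9 of them had enough counts to be tested, among 16954 tested genes in all. PDE4D was the member left out, with 1 to 5 counts per library. The genes are spread over the genome, with PDE4A and PDE4C on chromosome 19, PDE4D and PDE8B on chromosome 5, and PDE4B, PDE7B, PDE7A, PDE3B, PDE3A and PDE8A on chromosomes 1, 6, 8, 11, 12 and 15. The family was chosen with it known that PDE3A and PDE4B were higher in the knockout, so the values of the genotype contrast below are a description of these libraries. Apart from those increases, PDE4A was lower in the knockout, and the other 6 tested members did not pass the test.

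Cyclic AMP is a second messenger made by adenylyl cyclases at the plasma membrane and broken down to AMP by phosphodiesterases, so that the balance of both sets the activity of protein kinase A and of the other proteins that bind it. The PDE4, PDE7 and PDE8 enzymes act on cAMP and not on cGMP. PDE3 enzymes hydrolyse both nucleotides and are slowed by cGMP, which links the 2 messengers. Each gene has several promoters and splice forms, and the PDE4 forms differ in the regulatory domains through which protein kinase A activates them.

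HAP1 is an established, near-haploid human cell line derived from a chronic myeloid leukaemia. The design had 2 genotypes, wildtype and DEGS1 knockout, with 3 libraries of each and no treatment in either. Both were grown with 5% serum and taken 24 h after a passage, and the labels do not say how many knockout clones were used or whether the libraries came from separate cultures, so the spread behind each p-value is that of these libraries and may be only technical. DEGS1 makes ceramide from dihydroceramide, and the series asks what its loss does to the cell.

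Total counts ran from 17322756 to 28988522 per library. DEGS1 was at 95.5 to 123 CPM (counts after library scaling, relative to library size) in wildtype and at 6.88 to 10.4 CPM in the knockout. Over all tested genes, 4.46% passed edgeR's quasi-likelihood test at a Benjamini-Hochberg adjusted p under 0.05, 1.51% higher and 2.95% lower in the knockout, and the 3 knockout libraries lay wholly on one side of the wildtype libraries in 20.8%. Wildtype replicate 2 stood apart from its group: its root mean square deviation from the group mean was 0.338 on the log2 scale, against 0.175 to 0.261 for the other 5 libraries, and 3825 genes passed without it against 756 with it. Pairs of libraries were also compared by chi-square per degree of freedom. Wildtype replicate 2 was nearer to knockout replicates 2 (20.8) and 3 (24.6) than to wildtype replicates 1 (33.7) and 3 (51.6). Wildtype replicates 1 and 3 were nearest to each other (12.6). On this measure the libraries did not separate by genotype. Calls that change without wildtype replicate 2 are given both ways for the genes chosen by the naming rule stated with the processing. For the markers and the other genes named below, the fit without it was not read.

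The reference sequence around annotated start sites is shown for the members that passed the test. RefSeq windows (GRCh38.p14) of 250 bases before to 50 bases after a start were held for 8 of the 10 members, 32 windows in all. They were searched on both strands for the cAMP response element TGACGTCA, the site bound by CREB, and for its shorter core TGACG, which the full element contains. The 4 windows shown are those of the 3 members that passed the test, with the most upstream window where several were held, and the window of PDE7B, which did not pass but held the full element. Capitals mark each match, and all are written 5′ to 3′.
PDE3A, chr12:20571829-20572128, + strand: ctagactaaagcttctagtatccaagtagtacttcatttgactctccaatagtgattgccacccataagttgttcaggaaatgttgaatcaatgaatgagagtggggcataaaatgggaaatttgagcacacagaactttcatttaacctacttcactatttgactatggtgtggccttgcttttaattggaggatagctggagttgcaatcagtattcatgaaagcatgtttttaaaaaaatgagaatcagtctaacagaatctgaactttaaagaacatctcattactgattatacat
PDE4B, chr1:65792260-65792559, + strand: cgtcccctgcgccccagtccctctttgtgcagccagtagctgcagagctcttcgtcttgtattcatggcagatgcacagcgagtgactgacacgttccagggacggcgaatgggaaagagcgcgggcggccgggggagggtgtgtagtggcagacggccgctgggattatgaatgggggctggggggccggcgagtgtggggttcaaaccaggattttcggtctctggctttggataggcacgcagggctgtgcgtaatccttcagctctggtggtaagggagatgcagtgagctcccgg
PDE4A, chr19:10416523-10416822, + strand: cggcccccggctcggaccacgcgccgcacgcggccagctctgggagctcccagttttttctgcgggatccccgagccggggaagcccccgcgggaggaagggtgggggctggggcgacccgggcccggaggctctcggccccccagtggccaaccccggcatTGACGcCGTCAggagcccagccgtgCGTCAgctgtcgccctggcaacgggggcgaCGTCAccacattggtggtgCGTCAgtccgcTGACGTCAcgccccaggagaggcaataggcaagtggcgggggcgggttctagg
PDE7B, chr6:135851451-135851750, + strand: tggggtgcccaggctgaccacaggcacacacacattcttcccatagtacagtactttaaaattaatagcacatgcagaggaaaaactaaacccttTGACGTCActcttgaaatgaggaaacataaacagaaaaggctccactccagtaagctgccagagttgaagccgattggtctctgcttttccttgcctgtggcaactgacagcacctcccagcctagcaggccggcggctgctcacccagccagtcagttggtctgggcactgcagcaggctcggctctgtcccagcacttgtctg

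In the PDE4A window the full element spanned the start site, with its first base 3 bases before it, and 5 further copies of the core were present, in a sequence of 73% G and C. The other 4 of the 5 PDE4A windows held neither string. The first base of the element of the PDE7B window lay 155 bases before the start. PDE4C, with 1 of 4 windows, and PDE4D, with 1 of 8, held the core without the full element. Neither string occurred in the PDE3A window, which has 35% G and C and no CpG, nor in any of the 6 PDE4B windows. The full element occurred in 1.85% of all 35116 RefSeq windows of this length, and the core in 24.6%. The PDE3A window belongs to a start 203542 bases downstream of the 5′ end of the gene, and a window for its most upstream start was not used here. Counts were made per gene, so the start site in use in these cells is not given by the data, and a match of letters is not a measured binding site.

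Of the PDE3 genes, PDE3A passed the test and PDE3B did not. PDE3A encodes the enzyme of heart, platelets and smooth muscle that cardiac PDE3 inhibitors block. It had 2.24, 1.78 and 2.68 CPM in wildtype replicates 1, 2 and 3 and 11.6, 14.5 and 12.0 CPM in the knockout replicates. The lowest knockout library was above the highest wildtype library, and wildtype replicate 2 was the lowest of all 6. The mean was 2.23 ± 0.448 CPM in wildtype and 12.7 ± 1.54 CPM in the knockout (SD, n = 3 each), a 5.72-fold increase with a log2 fold change of 2.52 (SE 0.21). Among 256 genes called higher it ranked 17 by fold change.

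PDE3B, the form of fat cells and liver that acts downstream of insulin, was the far more abundant PDE3 gene. It stood at 49.5, 51.8 and 47.8 CPM in wildtype and at 37.8, 52.9 and 37.2 CPM in the knockout. Knockout replicates 1 and 3 were below all wildtype libraries and knockout replicate 2 above them, so the groups overlapped. The log2 fold change was -0.22 (SE 0.14, adjusted p = 0.474 by edgeR), and without knockout replicate 2 it was -0.40 (adjusted p = 0.0889 by edgeR).

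In the PDE4 family, PDE4B rose, PDE4A fell, PDE4C did not pass the test and PDE4D was near the limit of detection. PDE4B encodes the form known for its part in inflammatory signalling and in the brain. Its level was 1.53, 0.743 and 1.45 CPM in the wildtype libraries and 5.13, 3.36 and 6.56 CPM in the knockout libraries. All knockout values lay above all wildtype values, with replicate 2 the lowest in both genotypes. The mean went from 1.24 ± 0.433 to 5.02 ± 1.6 CPM (SD, n = 3 each), 4.07-fold, with a log2 fold change of 2.02 (SE 0.34), which ranked 29 among the 256 increases. The counts behind it were small, 20 to 39 per library in wildtype and 88 to 180 in the knockout.

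PDE4A, a further cAMP-specific form, had 3.85, 3.05 and 5.14 CPM in wildtype and 2.00, 1.64 and 1.64 CPM in the knockout. The groups did not overlap, and the wildtype libraries were spread more widely than the knockout libraries. The mean fell from 4.01 ± 1.06 to 1.76 ± 0.207 CPM (SD, n = 3 each), with a log2 fold change of -1.18 (SE 0.27, adjusted p = 0.0318 by edgeR). This call was fragile: it was lost in 7 of 14 other settings, including every fit with 1 library removed except wildtype replicate 2 (adjusted p 0.0845 to 0.165 by edgeR). In GENCODE release 29 the gene overlaps CDC37 on the opposite strand, which had 1900 to 3481 counts per library against 39 to 98 for PDE4A. CDC37 had a log2 fold change of 0.15 (adjusted p = 0.591 by edgeR). The strand setting of the counting is not given in the sources used here, and a part of CDC37 reads in the PDE4A counts cannot be told apart.

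PDE4C, which is found in few tissues, was at 6.01, 4.61 and 7.23 CPM in wildtype and at 6.16, 3.82 and 6.23 CPM in the knockout. The ranges overlapped, replicate 2 was again the lowest of each genotype, and the log2 fold change was -0.14 (SE 0.25, adjusted p = 0.825 by edgeR). Its sign turned positive without wildtype replicate 3 and without knockout replicate 2. PDE4D, a widely expressed form in other tissues, had 4, 5 and 4 counts in the wildtype libraries and 2, 1 and 3 in the knockout libraries. Scaled, that was 0.157 to 0.214 CPM and 0.0382 to 0.109 CPM, without overlap but at or near the floor of 3 counts. Summed and scaled, the knockout had 0.449 of the wildtype level with an exact 95% interval of 0.14 to 1.26, which covers counting error only, so a difference was not detectable at this depth. The longest PDE4D transcript of GENCODE 29 was 8.23 kb. The gene overlaps AC109486.1 on the same strand, which had 108 to 245 counts per library. How shared reads were assigned is not given in the sources used here, and its part in the low PDE4D counts was not tested.

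**Figure D1:**
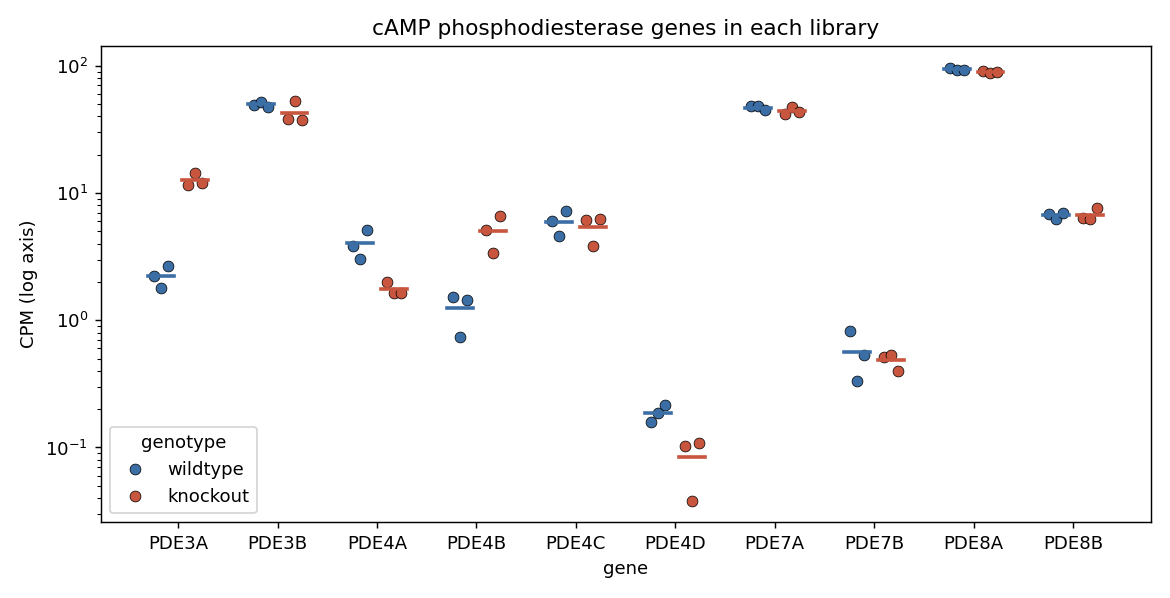
Level of each of the 10 cAMP phosphodiesterase genes in CPM on a log axis, with 1 point per library (3 wildtype, 3 knockout) and a bar at the mean of each genotype. PDE3A and PDE4B are higher and PDE4A is lower in all 3 knockout libraries, while PDE8A, PDE7A and PDE3B are the most abundant genes in both genotypes and PDE4D lies below 0.3 CPM in every library.

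The PDE7 and PDE8 genes, which encode cAMP-specific enzymes insensitive to the common inhibitors of PDE3 and PDE4, gave no call. PDE7A, known from T cells, had 47.9, 48.4 and 44.6 CPM in wildtype and 41.9, 47.3 and 43.0 CPM in the knockout, with a log2 fold change of -0.09 (SE 0.10, adjusted p = 0.701 by edgeR). PDE7B had 9 to 21 counts per library in wildtype and 10 to 14 in the knockout, and its log2 fold change of -0.23 (SE 0.45, adjusted p = 0.835 by edgeR) had the largest standard error among the 9 tested members. Without wildtype replicate 2 it was -0.52 (adjusted p = 0.388 by edgeR). Its ranges overlapped.

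PDE8A was the most even member and the most abundant. It stood at 96.7, 93.0 and 92.7 CPM in wildtype and at 90.2, 87.9 and 88.9 CPM in the knockout, where every library was below every wildtype library. The difference was small, from 94.1 ± 2.27 to 89 ± 1.13 CPM (SD, n = 3 each), and did not pass the test (log2 fold change -0.08, SE 0.10, adjusted p = 0.72 by edgeR). PDE8B, a form of the thyroid and adrenal gland, had 6.84, 6.28 and 6.91 CPM in wildtype and 6.31, 6.23 and 7.62 CPM in the knockout, with a log2 fold change of 0.01 (SE 0.18, adjusted p = 0.982 by edgeR). PDE8B overlapped between genotypes, and its sign changed under 2 other scalings, without wildtype replicate 2 and without knockout replicate 3.

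As a group, 2 of the 9 tested members rose and 1 fell in edgeR's test, against 1.51% and 2.95% of all tested genes. All 3 changed by over 2-fold, which 0.655% (higher) and 1.83% (lower) of all tested genes did while passing the test, and PDE3A and PDE4B rose by over 4-fold, as 0.177% did. For an unadjusted p under 0.05 the members' count was also 3, against 16.5% of all genes. Nothing is read from any count or share in this paragraph, because the family was chosen on this contrast. Log2 fold changes were positive in 3 and negative in 6 of the 9, with a median of -0.09, beside a median of -0.02 over all tested genes, of which 47.3% were positive. The groups did not overlap in 4 of the 9, PDE3A, PDE4B, PDE4A and PDE8A, against 20.8% of all tested genes, 9.24% on the higher and 11.6% on the lower side.

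Levels of different genes were compared per kb of the longest GENCODE 29 transcript. In wildtype PDE8A had the highest scaled level (median 19.9 CPM per kb, range 19.9 to 20.7), followed by PDE7A (13, 12.1 to 13.2) and PDE3B (8.14, 7.86 to 8.52). These were apart from each other and from PDE4C (1.29), PDE8B (1.15) and PDE4A (0.806), whose neighbouring ranges overlapped. PDE4B (0.318) and PDE3A (0.296) overlapped as well, and PDE7B (0.0994) and PDE4D (0.0226) were the lowest.

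In the knockout the top of this order was PDE8A, PDE7A and PDE3B again, but PDE3A moved from rank 8 to rank 4 with a median of 1.59 CPM per kb (range 1.53 to 1.91). PDE4B moved from rank 7 to rank 6 at 1.13 CPM per kb (0.74 to 1.44), a range that overlapped those of PDE4C above it and PDE8B below it. PDE4A went from rank 6 to rank 8 at 0.344 CPM per kb (0.343 to 0.419).

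The summed level of the 10 genes, without length scaling, was 209, 210 and 216 CPM in the wildtype libraries in order of size. It was 202, 204 and 218 CPM in the knockout libraries, so the ranges overlapped. Most of this sum is PDE8A, PDE7A and PDE3B, so it says little about the other genes. The family was chosen with the rise of PDE3A and PDE4B known, so the shares that follow only restate it. On the length-scaled values, PDE3A made up 3.51%, 2.69% and 4.3% of the PDE3 family in wildtype and 19.7%, 18% and 20.6% in the knockout. PDE3B held the rest, a median of 96.5% in wildtype and 80.3% in the knockout. In the PDE4 family, PDE4A made up 32.8%, 35.1% and 36.2% in wildtype and 14.5%, 18% and 10.9% in the knockout. PDE4B made up 13.7%, 9.02% and 10.7% in wildtype and 39.2%, 38.7% and 46% in the knockout. Each knockout library thus held more PDE4B than PDE4A and each wildtype library more PDE4A than PDE4B, whereas PDE4C was the largest PDE4 gene in all libraries except knockout replicate 3, where it had 42.7%.

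**Figure D2:**
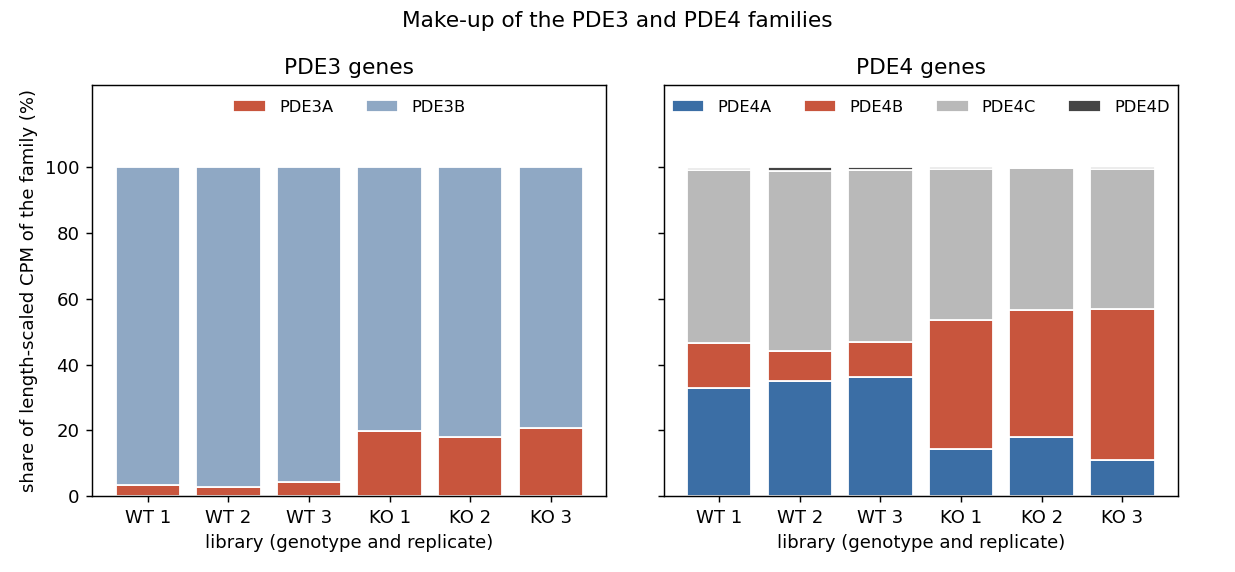
Share of each gene in the length-scaled CPM of its family, in percent, with 1 stacked bar per library for the PDE3 genes (left) and the PDE4 genes (right). PDE3A takes 2.69% to 4.3% of PDE3 in wildtype and 18% to 20.6% in the knockout, and PDE4B takes 9.02% to 13.7% of PDE4 in wildtype and 38.7% to 46% in the knockout.

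Of the whole set, PDE8A took a median of 44.7% of the length-scaled level in wildtype and 44.3% in the knockout, PDE7A 28.4% and 27.3%, and PDE3B 17.7% and 14.6%. The PDE3 and PDE4 genes that differed were minor parts of the set in both genotypes: PDE3A took 0.643% and 3.7%, PDE4B 0.716% and 2.65%, and PDE4A 1.75% and 0.798%. The sum of the PDE4 genes was 1.81 to 2.97 CPM per kb in wildtype and 1.91 to 3.14 CPM per kb in the knockout, with overlapping ranges.

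PDE3A and PDE4B kept their direction and side of the threshold in all 14 other settings. The log2 fold change of PDE3A ran from 2.38 without wildtype replicate 2 to 2.66 without wildtype replicate 3. That of PDE4B ran from 1.75 without wildtype replicate 2 to 2.25 without knockout replicate 2. PDE4A was at -1.35 without wildtype replicate 2 (adjusted p = 0.00244 by edgeR) and at -0.97 without wildtype replicate 3 (adjusted p = 0.128 by edgeR). Compared between libraries with the same replicate number, the log2 ratios of PDE3A were 2.37, 3.02 and 2.17, those of PDE4B 1.74, 2.18 and 2.18, and those of PDE4A -0.945, -0.889 and -1.65.

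**Figure D3:**
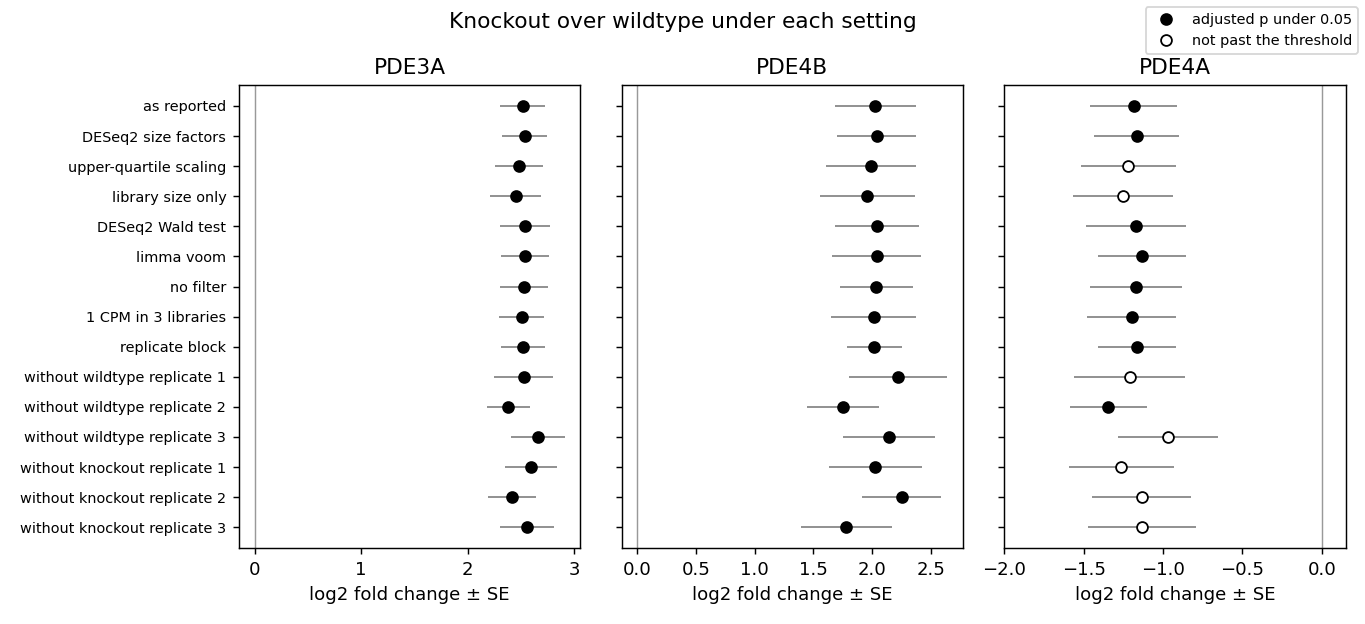
Log2 fold change (knockout over wildtype) with its standard error for PDE3A, PDE4B and PDE4A, as reported and under 14 other settings, with filled points where the adjusted p was under 0.05. All points of PDE3A and PDE4B are filled and lie between 1.75 and 2.66, whereas 7 of the 14 other points of PDE4A are open.

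The rest of the cAMP pathway, listed together with the other phosphodiesterases, gave 10 calls among 111 tested genes of 145 listed. That is 9.01%, against 4.46% of all tested genes, with 3 genes higher and 7 lower in the knockout. Some of these phosphodiesterases, such as PDE9A, act on cGMP. An unadjusted p under 0.05 was found in 31 of the 111, against 16.5% of all tested genes. The lists were chosen with earlier results of these data known, so nothing is read from these shares or from those of single lists below. The median log2 fold change over the 111 was -0.09. Without wildtype replicate 2, 31 of the listed genes passed, 11 higher and 20 lower, in a fit where 22.1% of all tested genes passed. Without knockout replicate 3, 5 passed, and 2.2% of all tested genes did.

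Of 9 other tested phosphodiesterase genes, 1 fell and 1 rose, where 2.95% of all tested genes fell and 1.51% rose. PDE10A, an enzyme of both cAMP and cGMP that is most abundant in the striatum, had 13.3, 10.6 and 13.3 CPM in wildtype and 3.59, 5.58 and 3.86 CPM in the knockout. Its groups were well apart, with a log2 fold change of -1.51 (SE 0.21, adjusted p = 0.00132 by edgeR), and its call held in all 14 other settings. PDE9A, which is specific for cGMP, rose from 3.05 ± 0.609 to 6.14 ± 0.335 CPM (SD, n = 3 each; log2 fold change 1.01, SE 0.22, adjusted p = 0.0264 by edgeR). The PDE9A call was lost in 6 of 14 other settings, including every fit with 1 library removed except wildtype replicate 2 (adjusted p 0.0505 to 0.171 by edgeR). PDE11A, PDE5A, PDE1B, PDE6A, PDE6B, PDE6C and PDE6D did not pass.

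Among the genes that make cAMP or start its signal, 2 passed the test, both lower, where 2.95% of all tested genes fell. Of 9 adenylyl cyclases ADCY7 fell, from 37.1 ± 8.56 to 23.8 ± 1.68 CPM (SD, n = 3 each; log2 fold change -0.64, SE 0.16, adjusted p = 0.0431 by edgeR), a call lost in 9 of 14 other settings, including every fit with 1 library removed except wildtype replicate 2 (adjusted p 0.0945 to 0.183 by edgeR). None of 7 G protein alpha subunits of the cyclase passed edgeR's test and none had an unadjusted p under 0.05, with GNAI2 nearest (log2 fold change 0.22, SE 0.11, adjusted p = 0.365 by edgeR, and 0.0236 without wildtype replicate 2). Of 17 tested Gs-coupled receptors GLP1R, the receptor of the incretin GLP-1, fell. It had 89 counts in wildtype and 10 in the knockout, summed over libraries, a scaled ratio of 9.16 (95% exact interval 4.75 to 19.8, counting error only), with a log2 fold change of -3.11 (SE 0.48, adjusted p = 0.00288 by edgeR). The remaining 17 of the 34 receptors had too few counts to be tested. An unadjusted p under 0.05 was found in 1 of the 9 cyclases and 6 of the 17 tested receptors, against 16.5% of all tested genes.

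Among the proteins that bind cAMP, 2 Popeye genes rose and no gene of protein kinase A or EPAC passed. Cyclic nucleotide-gated channels and Popeye proteins had 8 tested genes, of which 2 rose, where 1.51% of all tested genes rose. Log2 fold changes were positive in 3 of the 8 and negative in 5. The Popeye gene POPDC2 did not pass (log2 fold change 0.28, adjusted p = 0.82 by edgeR). Nor did the channel genes HCN2 (-0.96, 0.3) and CNGA1 (-0.66, 0.326). POPDC3 went from 5.03, 4.01 and 3.54 CPM in wildtype to 10.9, 8.53 and 12.6 CPM in the knockout, with no overlap (log2 fold change 1.35, SE 0.21, adjusted p = 0.00327 by edgeR). BVES, the symbol in the table for POPDC1, went from 16.2 ± 0.337 to 26.5 ± 1.84 CPM (SD, n = 3 each; log2 fold change 0.71, SE 0.12, adjusted p = 0.00456 by edgeR). Both calls held in all 14 other settings. Popeye proteins are membrane proteins with a cAMP-binding domain, best known in heart and skeletal muscle. None of 12 tested genes of protein kinase A, its inhibitors and EPAC passed edgeR's test. The unadjusted p was under 0.05 in 4 of the 12, against 16.5% of all tested genes. RAPGEF4, which encodes EPAC2, was nearest (log2 fold change -0.47, SE 0.13, adjusted p = 0.0787 by edgeR, and 0.035 without wildtype replicate 2).

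Of 22 tested anchoring and partner proteins 1 passed, where 2.95% of all tested genes fell and 1.51% rose. ABCC4, a transporter that exports cAMP, fell from 64.1 ± 6.96 to 40.8 ± 3.27 CPM (SD, n = 3 each; log2 fold change -0.65, SE 0.12, adjusted p = 0.00677 by edgeR). In 7 of the 22 the unadjusted p was under 0.05, against 16.5% of all tested genes. The ABCC4 call was lost without knockout replicate 1 (adjusted p = 0.0596 by edgeR) and without knockout replicate 3 (0.0508). SLFN12, the partner of PDE3A in cells killed by PDE3A-binding drugs, was at 4.5 CPM in wildtype and 7.53 CPM in the knockout and did not pass (log2 fold change 0.74, adjusted p = 0.231 by edgeR).

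No gene among 11 of the CREB family and its coactivators passed edgeR's test, although the unadjusted p was under 0.05 in 2, against 16.5% of all tested genes. EP300, a coactivator, was nearest (log2 fold change -0.61, SE 0.21, adjusted p = 0.178 by edgeR), and it was at -0.84 (adjusted p = 0.000194 by edgeR) without wildtype replicate 2. Of 16 tested genes known to be induced through CREB in some cell type, 3 fell and none rose, where 2.95% of all tested genes fell and 1.51% rose. BDNF, a neurotrophin, had 51 summed counts in wildtype and 4 in the knockout, a scaled ratio of 13.1 (95% exact interval 4.82 to 50, counting error only; adjusted p = 0.00578 by edgeR). NR4A2, a nuclear receptor, fell by 1.44 on the log2 scale (SE 0.26, adjusted p = 0.00788 by edgeR), a call lost without wildtype replicate 1 (0.0517) and without knockout replicate 3 (0.0637). PPARGC1A, a coactivator of mitochondrial genes, fell by 1.58 (SE 0.38, adjusted p = 0.0392 by edgeR), a call lost in 7 of 13 other settings. The other 13 tested genes of this list did not pass, among them NR4A1, PER1 and FOS, which had 14 to 25 counts per library. For PER1 the log2 fold change was -0.50 (adjusted p = 0.206 by edgeR), for NR4A1 0.06 (0.88) and for FOS 0.48 (0.55).

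**Figure D4:**
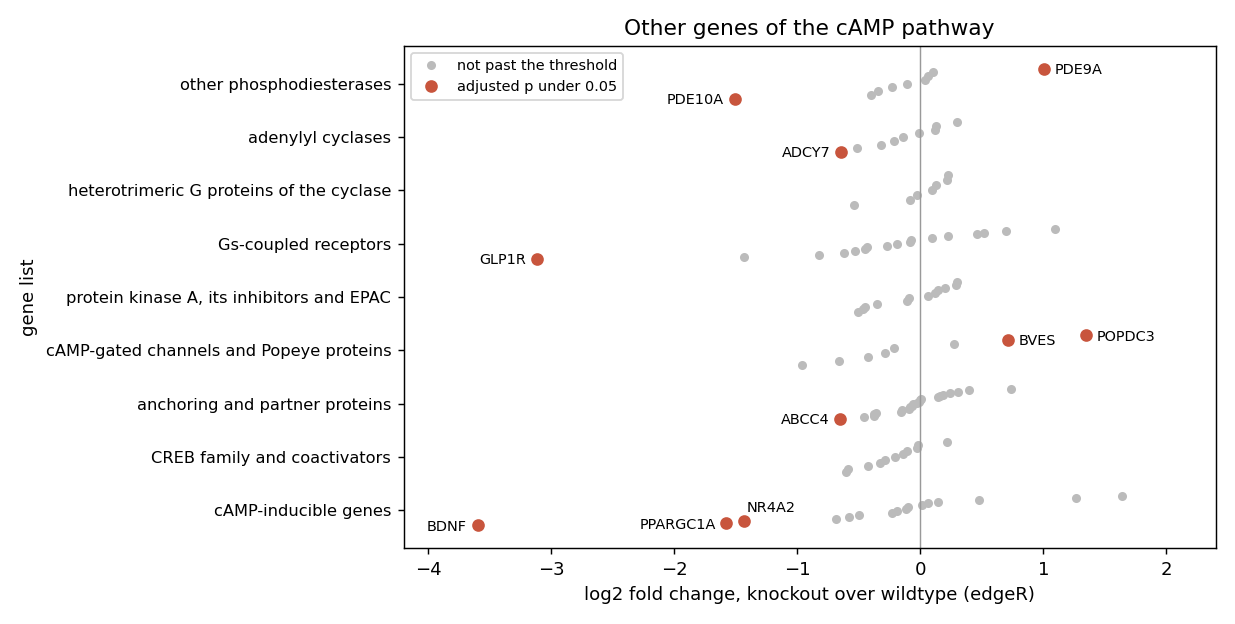
Log2 fold change (knockout over wildtype) of each tested gene in 9 lists, of the cAMP pathway and of other phosphodiesterases, with 1 point per gene and the genes at an adjusted p under 0.05 named. Most of the 111 points lie near 0, 3 named genes lie to the right and 7 to the left, and the lists of G proteins, of protein kinase A and EPAC, and of CREB factors hold no named gene.

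The neighbours of PDE3A and PDE4B were read from the gene order of RefSeq. After PDE3A the next tested genes were the organic anion transporters SLCO1B3 and SLCO1A2, and both were lower in the knockout. SLCO1B3 had 175 summed counts in wildtype and 2 in the knockout, a scaled ratio of 90 (95% exact interval 24.6 to 749, counting error only; adjusted p = 0.000115 by edgeR). SLCO1A2 fell from 5.83 ± 1.3 to 2.3 ± 0.269 CPM (SD, n = 3 each; log2 fold change -1.34, adjusted p = 0.00871 by edgeR), a call lost without knockout replicate 3 (0.0598). Before PDE3A, EEF1A1P4 and AEBP2 did not pass (adjusted p = 0.619 by edgeR and 0.921). EEF1A1P4 was at -0.27 on the log2 scale, and at -0.50 (adjusted p = 0.0593 by edgeR) without wildtype replicate 2. None of the nearest 4 tested genes around PDE4B passed: LEPROT (log2 fold change 0.45, adjusted p = 0.112 by edgeR), LEPR (-0.49, 0.363), WDR78 (-0.16, 0.782) and MIER1 (0.01, 0.968). LEPROT passed without wildtype replicate 2 (adjusted p = 0.00285 by edgeR).

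By Pearson correlation of log2 CPM over the 6 libraries, the genes most like PDE3A among 13356 compared were CLPTM1L (r = 0.998), KRT18P61 (0.996) and KCNJ8 (0.995). KCNJ8, a potassium channel subunit that lies 8 tested genes after PDE3A, was at 0.495 ± 0.129 CPM in wildtype and 3.96 ± 0.182 CPM in the knockout (SD, n = 3 each). CLPTM1L differed by only 1.12-fold and did not pass (adjusted p = 0.492 by edgeR). KRT18P61 rose from a mean of 0.166 to 6.94 CPM (adjusted p = 6.07e-06 by edgeR). It is a processed copy of KRT18, so its count is uncertain. KRT18 itself was at 51.1 CPM in wildtype and 70.8 CPM in the knockout and did not pass (adjusted p = 0.0794 by edgeR). Those most like PDE4B were LIMD2 (r = 0.995), STRA6 (0.994) and SRRM3 (0.993). STRA6, a retinol transporter, rose from 4.57 ± 0.81 to 8.66 ± 1.58 CPM (SD, n = 3 each; adjusted p = 0.0343 by edgeR), with the call lost in 5 of 14 other settings, and LIMD2 was called in 8 of 14. All 6 points share 2 genotypes, so these coefficients mostly reflect the step between them and carry no p-value.

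Markers of other cell types were read in the same libraries. In bulk RNA, fewer cells of a type and less RNA per cell cannot be told apart. Of 12 blood cell markers, SPI1, MPO, CD3E and HBG1 were at 0 in every library and none passed the test, with a summed level of 3.27 to 6.88 CPM in wildtype and 4.3 to 5.64 CPM in the knockout. Of 8 fibroblast markers LUM was at 0 and none passed (8.77 to 15.2 and 10.6 to 15.4 CPM), and of 10 muscle and heart markers MYH7 and MYOD1 were at 0 and none passed (12.8 to 23.5 and 14.1 to 16.9 CPM). Of 9 epithelial markers KRT19 was at 0, 3 of 8 tested fell (EPCAM, CLDN1, ESRP1) and none rose (83.5 to 89.3 and 72 to 108 CPM). Of 10 neuron markers 2 of 8 tested rose (MAP2, SNAP25) and 1 fell (NEFL) (43.3 to 59.8 and 70.4 to 111 CPM), and none was at 0 in all libraries. The higher neuron sum in the knockout rested largely on MAP2, with means of 25.8 CPM in wildtype and 68.1 CPM in the knockout. NEFL had 10 and 0.619 CPM, and SNAP25 0.177 and 1 CPM. Of all tested genes 1.51% rose and 2.95% fell. The part of the epithelial and neuron markers in the values of PDE3A, PDE4B and PDE4A was not tested.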

How the data were processed

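RNA was sequenced from 3 wildtype and 3 DEGS1 knockout libraries of HAP1 cells, from 1 ug of total RNA with a stranded total RNA kit and reads of 75 nt, per the labels' protocols. The authors deposited unnormalised counts, 1 value per symbol and library. The submitters' processing notes name bcl2fastq 2.20 and hg19. For the aligner, counter, annotation and strand setting nothing was given in the sources used here. Columns were matched to samples by their description, and groups taken from the titles.

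Genes were tested with edgeR 4.0.16 (R 4.3.3): TMM scaling, filterByExpr, a robust quasi-likelihood F test on genotype, Benjamini-Hochberg adjustment over all 16954 tested genes and a threshold of 0.05. Standard errors were derived as |log2 fold change| / sqrt(F). CPM uses scaled library sizes; 3 counts, the floor, are 0.109 to 0.161 CPM. As reads are not independent molecules, intervals and this floor reflect counting error alone. Lengths are of the longest GENCODE 29 transcript, and 145 of 145 list genes were matched by symbol. The code was tested on simulated data. Replicates differed by more than sampling noise in every pair (chi-square per degree of freedom 12.6 to 51.6).

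The members and lists were chosen with earlier results of these data known. Named genes are the 10 members, DEGS1, up to 3 called genes per list or the gene with the smallest p, the 2 nearest tested genes on each side of PDE3A and PDE4B, and the 3 genes most correlated with each at a mean of at least 1 CPM; the others named were chosen after their values were seen. Alternatives were DESeq2 1.42.0 size factors and Wald test, upper-quartile and library-size scaling, limma 3.58.1 voom, no filter, a minimum of 1 CPM in 3 libraries, a replicate block, the removal of each library in turn, and a threshold of 0.01.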

Additional observations from a re-analysis of the deposited data

How the results depend on the processing

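The calls of PDE3A and PDE4B were kept in all 14 alternatives run, and none of the called genes that were followed through them reversed. The count of cAMP phosphodiesterase genes changed was 3, and 2 at a threshold of 0.01. The count of all genes changed was 756, 375 at a threshold of 0.01, and 380 to 3825 with 1 library left out: leaving out replicate 1 gave 441 in wildtype and 424 in the knockout, leaving out wildtype replicate 2 gave the 3825, and leaving out knockout replicate 3 gave the 380. The listed genes of the cAMP pathway and other phosphodiesterases gave 10 calls, 6 with a filter of 1 CPM in 3 libraries, and 5 to 31 with 1 library left out. Without wildtype replicate 2 the share of calls that were higher was 48% against 33.9%. The causes were not tested. PDE4A, besides the fits in the report, missed the threshold with upper-quartile scaling (adjusted p = 0.0546 by edgeR) and library size only (0.067).

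Each alternative was fitted over all genes that passed its filter, and 37 named genes were followed through them. Among these 37, signs turned in 5, none of which passed. The markers, and the pathway and neighbouring genes named outside the rule for named genes, were not among the 37. PDE8B was at -0.015 with upper-quartile scaling, at -0.045 with library size only, and at -0.085 to 0.071 with 1 library left out. MIER1 was at -0.0087 with upper-quartile scaling, at -0.034 with library size only, and at -0.049 to 0.13 with 1 library left out. With 1 library left out, PDE4C ran from -0.29 to 0.068, PDE7B from -0.52 to 0.17 and AEBP2 from -0.12 to 0.092.

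Without length scaling, shares of the 10-gene sum in wildtype and knockout were 1.04% and 5.91% for PDE3A, 22.9% and 18.7% for PDE3B, 0.0884% and 0.0509% for PDE4D, 22.2% and 21.1% for PDE7A, and 3.17% and 3.13% for PDE8B, and 44.3% for PDE8A in wildtype.

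With the replicate block, 1082 genes passed, and PDE4A (adjusted p = 0.0202 by edgeR), PDE3A and PDE4B kept their calls. Both genotypes carry replicate numbers 1 to 3 and a shared code for each number, whose meaning the labels do not give. Deviations from the group means correlated at 0.233, 0.367 and -0.102 for numbers 1, 2 and 3, and knockout replicate 1 correlated best with wildtype replicate 3 (0.428). Deviations from a mean of 3 libraries are not independent, so these values cannot decide whether the numbers mark pairs. In the main fit they were not taken as pairs. Under the block, the SE was 0.23 against 0.34 for PDE4B, 0.18 against 0.25 for PDE4C and 0.19 against 0.17 for DEGS1. PDE4D was too low to be tested, and PDE7B, with 9 to 21 counts per library, was limited by depth.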

Other observations

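Around PDE3A, 4 of the nearest 20 tested genes on chromosome 12 passed edgeR's test, in both directions, against 4.46% of all tested genes. LMO3, a LIM-domain cofactor that lies before PDE3A, rose from 14.1 ± 0.188 to 28.6 ± 8.21 CPM (SD, n = 3 each; adjusted p = 0.00752 by edgeR), and KCNJ8 rose from 0.495 ± 0.129 to 3.96 ± 0.182 CPM (adjusted p = 0.000148 by edgeR), while SLCO1B3 and SLCO1A2 fell. ABCC9, the sulfonylurea receptor gene next to KCNJ8 and the partner of its channel, did not pass (log2 fold change -0.48, SE 0.29, adjusted p = 0.465 by edgeR). Around PDE4B, 3 of the nearest 20 passed, beside the same 4.46%: CACHD1 rose (log2 fold change 0.56, adjusted p = 0.00931 by edgeR), and AK4 (-0.68, 0.042) and IL12RB2 (-1.38, 0.0243) fell. These genes were chosen after their values were seen.

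Some genes of the pathway lists did not overlap between the groups and yet did not pass, of which 3 are given here. PLAT, tissue plasminogen activator, had a mean of 2.63 CPM in wildtype and 6.26 CPM in the knockout (log2 fold change 1.26, adjusted p = 0.0637 by edgeR). TSHR, the thyrotropin receptor, had 0.751 and 0.261 CPM (-1.44, 0.17). PCK1, an enzyme of glucose synthesis, had 0.35 and 1.09 CPM (1.64, 0.173), where knockout replicate 2 stood at 2.18 CPM and the other knockout libraries at 0.462 and 0.62 CPM. They too were chosen after their values were seen.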
